A study of Homo sapiens with 40 samples.

Results

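The genes of the integrins and laminins were followed in A2058 cells, an established human melanoma line, treated with inhibitors of phosphoinositide 3-kinase (PI3K). A gene was a member when its only symbol on the array began with ITGA, ITGB, LAMA, LAMB or LAMC and a digit, or was ITGAV, ITGAE, ITGAL, ITGAM or ITGAX, with antisense genes and the integrin-binding ITGB1BP and ITGB3BP genes left out. This gave 36 members of the 19775 genes with a single symbol, 25 of them with an integrin symbol and 11 with a laminin symbol. Of these, 23 lay above the 40th percentile of mean signal and were among the 11865 genes tested, and 13 were too dim to be tested.

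All cells received a single treatment of 24 h. BKM120 (buparlisib) inhibits the class I isoforms of PI3K, and its levels were IC30, IC50 and IC90 (max). BEZ235 (dactolisib) inhibits mTOR, a kinase downstream of PI3K, as well as PI3K itself, and its levels were IC50, IC90 and max. GDC0941 (pictilisib) inhibits class I PI3K and had the same level names as BEZ235, and part of the labels write it GCD0941. The remaining group received the solvent DMSO. Each of the 10 groups held 4 biological replicates, measured on 40 one-colour arrays. No source used here gives molar concentrations or the response behind the IC levels, so levels of the same name need not be equal in effect. All cultures were of this cell line, and the p-values set each change against the variation between those cultures. Each value is RNA per array after scaling, so that fewer cells of a kind and less RNA per cell cannot be told apart.

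Integrins are membrane receptors made of an alpha and a beta chain, each the product of its own gene. They hold the cell to the extracellular matrix or to other cells and pass signals through focal adhesions to PI3K and other kinases. The alpha chain mostly sets the ligand: collagen for some, laminin for others, and for a further set fibronectin, vitronectin and other proteins that carry the short RGD motif. Laminins are secreted trimers of an alpha, a beta and a gamma chain and are the main adhesive proteins of basement membranes. In melanoma, the integrin chains encoded by ITGB3 and ITGA4 are known for their link to invasive growth and spread.

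The promoters of 2 members are shown because LAMB3 and ITGA5 were the members whose promoter window held TGANTCA, the AP-1 recognition motif. Windows of 250 bases before to 50 bases after a transcription start (RefSeq, GRCh38.p14) were found for 24 of the 36 members, 17 of them tested. The stretches run from 150 bases before the start to 10 bases after it, 5′ to 3′ on the minus strand, with the match in capitals. LAMB3 lies on chr1:209651365-209651524 and its match begins 67 bases before the start. ITGA5 lies on chr12:54419257-54419416 and its match begins 6 bases before the start and ends on the start base itself.
LAMB3: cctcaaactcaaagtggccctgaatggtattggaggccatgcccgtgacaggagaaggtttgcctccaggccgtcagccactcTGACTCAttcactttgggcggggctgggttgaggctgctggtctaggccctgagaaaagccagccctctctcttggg
ITGA5: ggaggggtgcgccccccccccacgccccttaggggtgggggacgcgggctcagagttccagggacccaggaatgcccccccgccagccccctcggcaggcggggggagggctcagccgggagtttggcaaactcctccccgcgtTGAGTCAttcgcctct
TGANTCA, searched on both strands, was present in 2 of the 31 member windows, against 7.71% of all 35116 windows in the same table. LAMB3 has 3 windows and the match was in 1 of them. CATTCC, the TEAD motif, was present in 4 member windows (ITGA10, ITGA5, ITGB1 and LAMA2; 14% of all windows), and CACGTG, an E-box, in 1 (ITGA6; 7.26% of all windows). GTAAACA, the FOXO motif, was present in 0 of the 31, against 3.42% of all windows. These matches describe letters in the window, and binding of a factor was not measured.

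Markers of melanocytes and melanoma (MLANA, PMEL, TYR, TYRP1, MITF, SOX10, S100B and MIA) were all above the filter, and their summed signal was 9481 to 13310 under the inhibitors and 8305 to 8918 in DMSO. Of the leukocyte markers on the array, 2 of 9 were tested (LYZ and LCP1), while PTPRC, CD3E, CD3D, MS4A1, CD14, TYROBP and CD52 lay below the filter. Platelet markers were tested for 0 of 5 genes, endothelial markers for 2 of 6, keratinocyte and epithelial markers for 3 of 6 and fibroblast markers for 4 of 6. The summed keratinocyte and epithelial markers stood at 1360 to 1574 under BEZ235 at IC90 and max, 900.3 to 988.7 under BKM120 IC50, 948.6 to 1021 under GDC0941 IC50 and 894.1 to 1008 under GDC0941 IC90, against 1054 to 1201 in DMSO, with KRT5, EPCAM and CDH1 below the filter. The summed fibroblast markers stood at 840.5 to 1104 at BEZ235 max and 1566 to 1724 at BKM120 IC50, against 1239 to 1440 in DMSO. The summed leukocyte markers stood at 150.8 to 265.8 over the levels of BEZ235, 235.7 to 252.2 at BKM120 IC90 (max) and 215.8 to 266.8 at GDC0941 max, against 269.6 to 311.9 in DMSO. The summed endothelial markers stood at 30 to 47.4 under BKM120 at IC30 and IC50 and 31.4 to 43.3 under GDC0941 IC50, against 53.7 to 68.4 in DMSO. Over all arrays the mean signal was 1035 for KRT18, 1193 for LUM and 178.3 for LYZ. Each of these genes thus made up most of its epithelial, fibroblast or leukocyte sum. The part of these shifts in the results on integrin and laminin genes was not tested. Replicate 3 of BEZ235 at IC50 stood apart from all other arrays. Its ratio of 3′ to 5′ signal was 27.2 for ACTB and 3.44 for GAPDH, against 1.58 to 2.33 and 1.05 to 1.26 on the other 39 arrays. All groups share an estimate of spread, so this array also bears on calls in other treatments. Where leaving it out changed a member's call against DMSO, the value without it is given.

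In the fit of all 40 arrays, all 23 tested members were called in at least 1 treatment at an adjusted p under 0.05 (limma, Benjamini-Hochberg over all genes tested). The share of all genes called in at least 1 treatment was not counted, and BEZ235 max alone called 57.7% of them. Without replicate 3 of BEZ235 IC50, ITGB1 and LAMA5 were called against DMSO in no treatment. With all 40 arrays, 12 of the 23 members were higher only, 9 lower only, and ITGA2 and ITGA3 were higher in some treatments and lower in others. The matching shares of all genes were not counted, so none of these counts over the 9 treatments can be read as particular to the members. ITGA5 was lower in all 9 treatments. For BKM120, 7 members were called at IC30 (2 higher and 5 lower), where 21.3% of all genes tested were called, 13.2% higher and 8.15% lower. At BKM120 IC50, 4 were called (1 higher and 3 lower), where 19.8% of all genes tested were called, 12.6% higher and 7.24% lower. At BKM120 IC90 (max), 12 were called (4 higher and 8 lower), where 34.2% of all genes tested were called, 17.2% higher and 17% lower. For BEZ235, 15 were called at IC50 (11 higher and 4 lower), where 45.5% of all genes tested were called, 26.6% higher and 18.9% lower. At BEZ235 IC90, 13 were called (6 higher and 7 lower), where 55% of all genes tested were called, 31.1% higher and 23.9% lower, and at BEZ235 max 17 (9 higher and 8 lower), where 57.7% of all genes tested were called, 32.8% higher and 24.9% lower. For GDC0941, 7 were called at IC50 (2 higher and 5 lower), where 16.1% of all genes tested were called, 9.94% higher and 6.19% lower. At GDC0941 IC90, 10 were called (4 higher and 6 lower), where 25.3% of all genes tested were called, 15.4% higher and 9.83% lower, and at GDC0941 max 13 (6 higher and 7 lower), where 43.7% of all genes tested were called, 25.5% higher and 18.2% lower. Every treatment thus had members that rose and members that fell.

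At BKM120 IC90 (max), the 8 of 23 members that fell compare with 17% of all genes, and at BEZ235 IC90 the 13 of 23 that were called lie close to the share over all genes. By class, the calls at BEZ235 max took in all 11 tested integrin alpha chains (6 higher and 5 lower), 3 of 5 beta chains and 3 of 7 laminins. At GDC0941 max they took in 7 alpha chains (3 higher and 4 lower), 3 beta chains and 3 laminins. At BKM120 IC90 (max) they took in 6 alpha chains (2 higher and 4 lower), 3 beta chains and 3 laminins. The median absolute log2 change of the members was 0.34 at BEZ235 max, where that of all genes was 0.26, and 0.37 at GDC0941 max, where that of all genes was 0.19. At BKM120 IC30 it was 0.15, with 0.12 over all genes. The median signed change of the members lay between -0.07 and 0.10 in the 9 treatments. Without replicate 3 of BEZ235 IC50, that treatment called 12 members, 7 higher and 5 lower, with 44.3% of all genes called. In the same fit BKM120 called 9 at IC30, 8 at IC50 (3 higher and 5 lower) and 15 at IC90 (max), with 29.4%, 29% and 43.4% of all genes. BEZ235 called 14 at IC90 and 17 at max (62.5% and 64.5%), and GDC0941 called 9 at IC50, 10 at IC90 and 14 at max (24%, 33.9% and 51.7%).

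**Figure D1:**
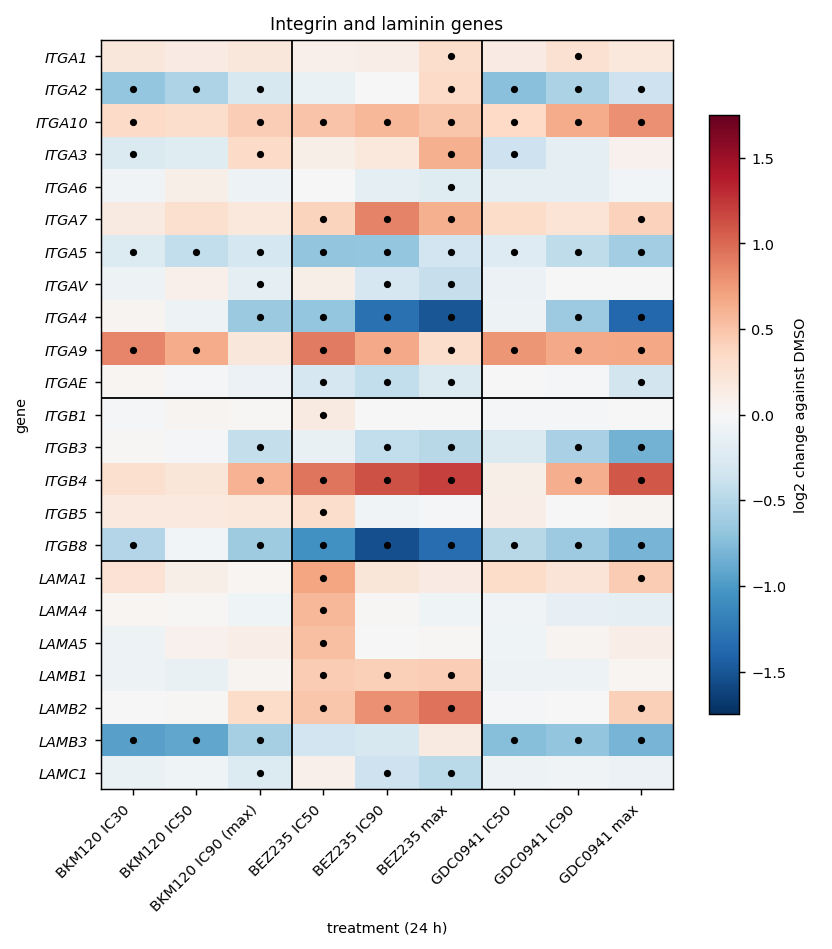
Log2 change against DMSO of the 23 tested integrin and laminin genes (vertical) in the 9 treatments (horizontal), with a dot where the adjusted p was under 0.05 and lines between integrin alpha chains, integrin beta chains and laminins. The colour runs over log2 changes of both signs, and ITGB8 and ITGA4 show the lowest values, -1.54 at BEZ235 IC90 and -1.49 at BEZ235 max.

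Among the alpha chains that bind collagen, ITGA2 fell and ITGA10 rose together in 5 of the 9 treatments. ITGA2 encodes the alpha chain of the main collagen receptor of epithelial cells and platelets. Its signal was 129, 134, 148 and 171 in the 4 arrays of BKM120 IC30 and 176, 129.6, 129 and 127 in those of GDC0941 IC50, against 262, 261, 215 and 226 in DMSO. Both treatments lay wholly below DMSO. The log2 change was -0.68 (SE 0.10, adjusted p = 3.19e-06) for BKM120 IC30 and -0.72 (SE 0.10, adjusted p = 1.32e-06) for GDC0941 IC50, or 1.6-fold and 1.65-fold lower, where folds are taken on the scale of signal plus 16. At the highest levels of these compounds the change was -0.28 at BKM120 IC90 (max) and -0.37 at GDC0941 max. BEZ235 differed: ITGA2 was not called at IC50 (-0.12, or -0.09 without replicate 3) or IC90 (0.01). At BEZ235 max the signal was 325, 299, 304 and 304, above every DMSO array, a log2 change of 0.34 (SE 0.10, adjusted p = 0.00428). The fall called at BKM120 IC90 (max) was lost when all probe sets of the gene were averaged.

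ITGA10, the alpha chain of a collagen receptor known from cartilage, was dim and higher in 8 of the 9 treatments. Its signal was 77.2, 64.4, 70.2 and 60.2 at GDC0941 max and 57.7, 58.5, 69 and 53.3 at GDC0941 IC90, against 31.3, 31.6, 46.7 and 22.1 in DMSO. Neither treatment overlapped DMSO. The change at GDC0941 max was 0.80 (SE 0.11, adjusted p = 4.38e-07), or 1.74-fold higher. Changes under BEZ235 were 0.50, 0.58 and 0.49 from IC50 to max, and the first was 0.49 without replicate 3. BKM120 at IC50 was not called (0.31, adjusted p = 0.0521), but it was without that array (adjusted p = 0.0372). The calls at BKM120 IC30 (0.33, adjusted p = 0.0343) and GDC0941 IC50 (0.35, adjusted p = 0.0324) were lost when dim genes were kept in, with a pseudocount of 64 and with only the compared groups fitted. ITGA1, the alpha chain of another receptor for collagen and laminin, rose at BEZ235 max (0.31, adjusted p = 0.0026) and GDC0941 IC90 (0.27, adjusted p = 0.019). Without replicate 3 of BEZ235 IC50, ITGA1 was also called at BKM120 IC90 (max) (0.20, adjusted p = 0.033). Its signal was 403 to 527 at BEZ235 max and 383 to 471 at GDC0941 IC90, against 340.5 to 379.7 in DMSO.

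Of the alpha chains that bind laminin, ITGA3 changed sign between levels of BKM120. It was 148, 155, 159 and 149.6 at BKM120 IC30 and 245, 236, 216 and 257 at BKM120 IC90 (max), against 188, 196, 171 and 192 in DMSO. The lower level lay wholly below DMSO and the higher level wholly above it. The log2 changes were -0.26 (SE 0.08, adjusted p = 0.0215) and 0.33 (SE 0.08, adjusted p = 0.00199). BEZ235 at max gave 308, 277, 284 and 309, a change of 0.62 (SE 0.08, adjusted p = 6.34e-08), whereas GDC0941 at IC50 gave 143, 144, 154 and 125, a change of -0.36 (SE 0.08, adjusted p = 0.00169). At GDC0941 max the value was 0.07 (adjusted p = 0.519). Without replicate 3 of BEZ235 IC50, ITGA3 was also called at BKM120 IC50 (-0.21, adjusted p = 0.0286) and BEZ235 IC90 (0.18, adjusted p = 0.0295).

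ITGA7, the alpha chain of the main laminin receptor of muscle, was higher under BEZ235. Its signal was 116, 130.3, 132 and 117 at BEZ235 IC90 and 108, 114, 104 and 84 at BEZ235 max, against 62.9, 71.2, 66.6 and 44.2 in DMSO. All 8 treated arrays lay above the DMSO arrays, with changes of 0.87 (SE 0.15, adjusted p = 6.48e-06) and 0.63 (SE 0.15, adjusted p = 0.000494). At BEZ235 IC50 it was called in the fit of all arrays (0.38, adjusted p = 0.0348) and not without replicate 3 (0.31, adjusted p = 0.104). Its other probe set was dimmer and stood at 0.15 at BEZ235 max (adjusted p = 0.449 over all probe sets). At GDC0941 max ITGA7 was 0.40 (adjusted p = 0.0266), a call that ended with quantile normalization, with the mean over probe sets and with only the compared groups fitted. ITGA6, which pairs with ITGB1 or ITGB4 in laminin receptors, fell at BEZ235 max (-0.22, adjusted p = 0.0171) on the brighter of its probe sets. On the other it was -0.79 at IC90 and -0.76 at max of BEZ235, both called over all probe sets (adjusted p = 0.00549 and 0.00663). The brighter probe set was not called at the lower levels and stood at -0.15 at BEZ235 IC90.

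ITGA5, the alpha chain of the classical fibronectin receptor, was the member lower in every treatment. Its signal was 340, 289, 318 and 271 at BEZ235 IC90 and 319.7, 308, 333 and 314 at GDC0941 max, against 467, 443, 516 and 554 in DMSO. Both groups lay wholly below DMSO. The changes were -0.67 (SE 0.08, adjusted p = 2.06e-09) and -0.61 (SE 0.08, adjusted p = 3.48e-08), or 1.59-fold and 1.52-fold lower. BEZ235 at IC50 gave -0.69 (SE 0.08, adjusted p = 3.79e-09), and -0.74 without replicate 3. From low to high level the changes were -0.25, -0.43 and -0.31 for BKM120 and -0.22, -0.45 and -0.61 for GDC0941. BEZ235 at max gave -0.33, with arrays at 361 to 423. The call at GDC0941 IC50 (adjusted p = 0.0395) was lost when dim genes were kept in and under quantile normalization.

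ITGAV, the alpha chain shared by the vitronectin receptors, fell at BKM120 IC90 (max) (-0.17, adjusted p = 0.0278), BEZ235 IC90 (-0.29, adjusted p = 0.000125) and BEZ235 max (-0.41, adjusted p = 4.53e-07). Its signal at BEZ235 max was 839, 968, 842 and 891, against 1085, 1242, 1226 and 1160.4 in DMSO. At GDC0941 max it was 0.00, with a 95% interval of -0.12 to 0.12.

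ITGA4 and ITGA9 encode related alpha chains that bind ligands such as VCAM1, fibronectin, tenascin and osteopontin, and in 5 of the 9 treatments the first fell while the other rose. ITGA4 had the second largest change of the members. Its signal was 239, 231, 216 and 236 at BKM120 IC90 (max), 117, 116, 134 and 119.7 at BEZ235 max and 139.5, 152, 118 and 124 at GDC0941 max, against 366, 359, 367 and 394 in DMSO. None of the 3 groups overlapped DMSO. The changes were -0.65 (SE 0.10, adjusted p = 4.24e-06), -1.49 (SE 0.10, adjusted p = 6.45e-15) and -1.38 (SE 0.10, adjusted p = 1.28e-13), so that BEZ235 at max was 2.81-fold lower and GDC0941 at max 2.6-fold lower. At the lower levels ITGA4 was 0.05 and -0.10 under BKM120 (IC30 and IC50) and -0.08 under GDC0941 IC50, none of them called. At the middle levels ITGA4 read 137, 152, 141 and 132 under BEZ235 IC90, a change of -1.31, and 219, 246, 227 and 244 under GDC0941 IC90, a change of -0.63. These arrays too lay below every DMSO array. BEZ235 at IC50 gave -0.67, with arrays at 295, 239.9, 152 and 244. The lowest of these is replicate 3, and without it the change was -0.50 (adjusted p = 2.62e-06).

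ITGA9 was higher in 8 of 9 treatments. Its signal was 395, 426, 406 and 393 at BKM120 IC30 and 426, 378, 398 and 332 at GDC0941 IC50, against 236, 224, 214 and 195 in DMSO. The changes were 0.85 (SE 0.08, adjusted p = 7.25e-10) and 0.77 (SE 0.08, adjusted p = 1.22e-08), or 1.8-fold and 1.71-fold higher. BEZ235 at IC50 gave 0.91 (SE 0.08, adjusted p = 5.6e-11), and 1.00 without replicate 3. The exception was BKM120 at IC90 (max), at 0.20 (adjusted p = 0.0659), which was called without replicate 3 of BEZ235 IC50 (adjusted p = 0.0302). At IC90, BEZ235 stood at 0.67 and GDC0941 at 0.66. BEZ235 at max stood at 0.31 and GDC0941 at max at 0.67. ITGAE, the alpha chain of a receptor for E-cadherin on lymphocytes, fell at BEZ235 IC50 (-0.29, or -0.34 without replicate 3), BEZ235 IC90 (-0.43), BEZ235 max (-0.26) and GDC0941 max (-0.32), with adjusted p of at most 0.00156. Its partner ITGB7 was among the dim members.

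**Figure D2:**
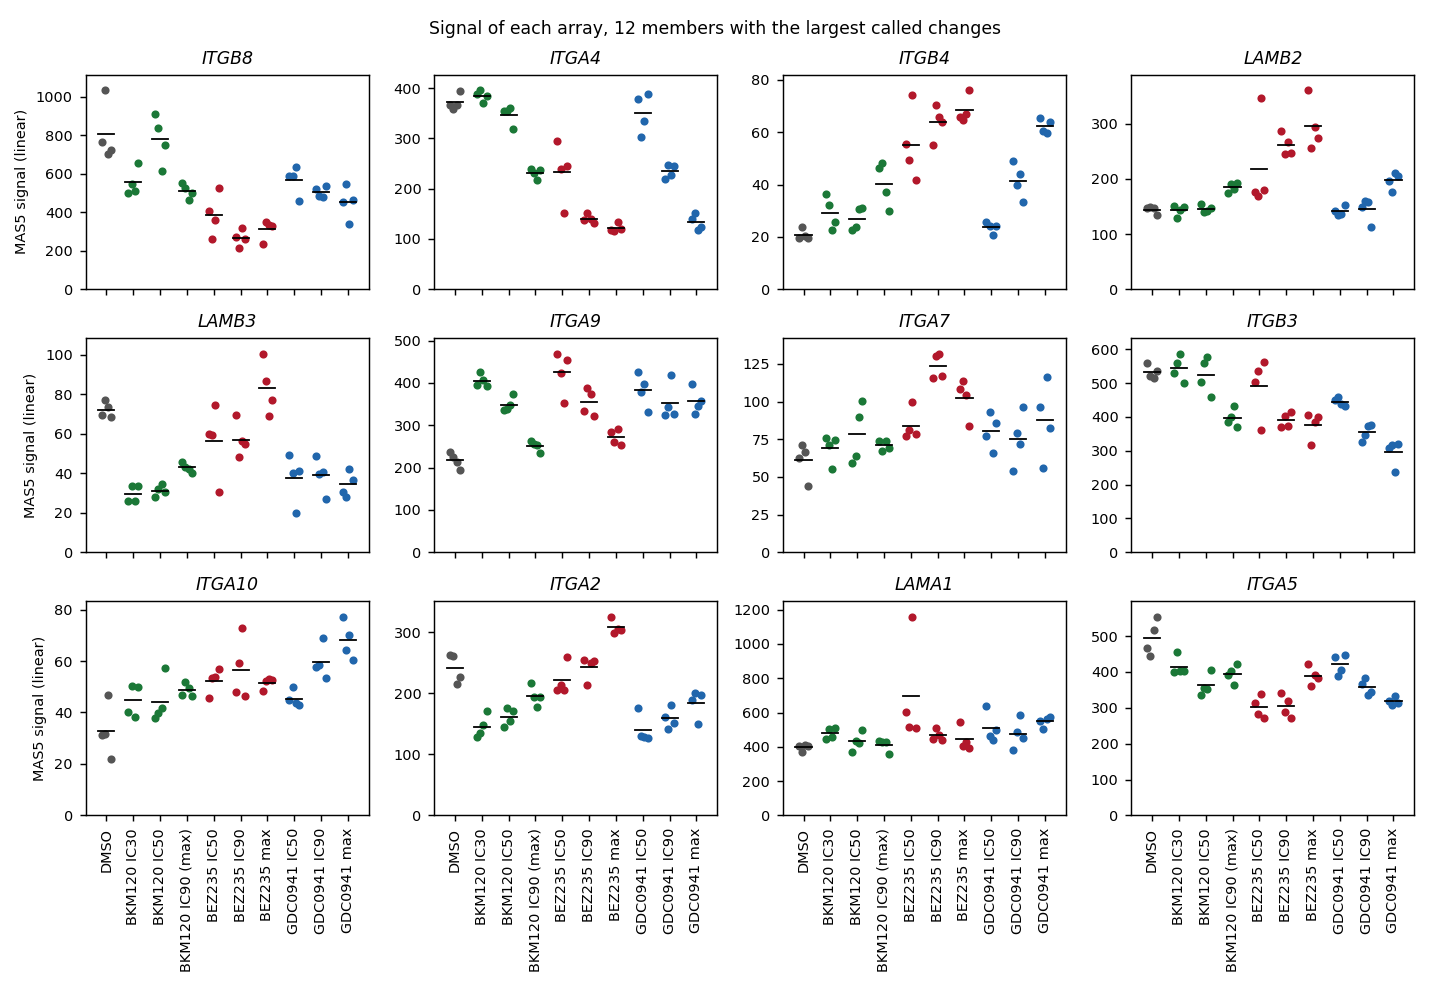
Signal (linear scale, vertical) of the 12 members with the largest changes on each of the 40 arrays, with DMSO at the left and the levels of each compound from low to high. LAMA1 is included through its log2 change at BEZ235 IC50, which was 0.69 with replicate 3 and 0.42 without it. Points are arrays and black lines are means of 4; ITGA4 at BEZ235 max (116 to 134) lies below all DMSO arrays (359 to 394) and ITGA9 at BKM120 IC30 (393 to 426) above them (195 to 236).

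Of the beta chains, ITGB8 fell, ITGB4 rose and ITGB1 was called in 1 treatment. ITGB8 pairs with ITGAV in a receptor that activates latent TGF-beta. Its signal was 269, 215, 317 and 258 at BEZ235 IC90, 233, 351.1, 332 and 326 at BEZ235 max and 453, 545, 339.7 and 465 at GDC0941 max, against 763, 1032, 704 and 722 in DMSO. DMSO replicate 2 was the highest of the arrays listed here, and all arrays of these treated groups lay below the DMSO range. The changes were -1.54 (SE 0.15, adjusted p = 1.08e-10), -1.33 (SE 0.15, adjusted p = 2.61e-09) and -0.82 (SE 0.15, adjusted p = 4.18e-05), and the first, 2.92-fold lower, was the largest change of any member. BEZ235 at IC50 gave -1.05, and -1.03 without replicate 3. ITGB8 was not called at BKM120 IC50 (-0.05, 95% interval -0.36 to 0.27), although it fell at BKM120 IC30 (-0.52, adjusted p = 0.0136) and IC90 (max) (-0.63, adjusted p = 0.0015). At GDC0941 IC50 and IC90 it was -0.48 and -0.64. These values come from 1 of the gene's 5 probe sets. On it, the change from IC50 to IC90 under BKM120 minus that under BEZ235 was -0.09 and not called. With the mean over probe sets that difference was 0.31 (limma, adjusted p = 0.00199).

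ITGB4, the beta chain of the laminin receptor in hemidesmosomes, had the largest rise. Its signal was 46.5, 48.2, 37 and 29.7 at BKM120 IC90 (max), 66, 64.8, 66.8 and 76 at BEZ235 max and 65.6, 60.3, 59.9 and 64.1 at GDC0941 max, against 19.7, 23.8, 20.4 and 19.4 in DMSO. The DMSO values are close to the lowest mean signal tested, 14.7, and the folds depend on the pseudocount of 16. The gene has 5 probe sets, and the suffix of the one used, _s_at, marks probes that may match several related transcripts. With such probe sets used last, ITGB4 lay below the filter and was not tested. The changes were 0.60 (SE 0.11, adjusted p = 6.25e-05), 1.20 (SE 0.11, adjusted p = 2.41e-11) and 1.09 (SE 0.11, adjusted p = 5.05e-10), with no overlap between groups. At IC90, BEZ235 gave 1.11 and GDC0941 0.64. At IC50, BEZ235 gave 0.93 and 0.81 without replicate 3, while BKM120 (0.22) and GDC0941 (0.11) were not called. BKM120 at IC30 (0.29, adjusted p = 0.0677) was called without that array (adjusted p = 0.031).

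ITGB3, the beta chain that pairs with ITGAV in the vitronectin receptor of invasive melanoma, fell at the higher levels of all 3 compounds. Its signal was 386, 399, 432 and 369.8 at BKM120 IC90 (max), 405, 318, 384 and 400.5 at BEZ235 max and 309, 318, 237 and 319 at GDC0941 max, against 559, 522, 516 and 536 in DMSO. The changes were -0.41 (SE 0.10, adjusted p = 0.000825), -0.49 (SE 0.10, adjusted p = 4.18e-05) and -0.83 (SE 0.10, adjusted p = 6.6e-09). GDC0941 at IC50 gave -0.25 (adjusted p = 0.0676, or 0.0138 without replicate 3 of BEZ235 IC50). GDC0941 at IC90 gave -0.57 and BEZ235 at IC90 -0.44. These values come from a probe set whose suffix, _s_at, marks probes that may match several related transcripts. Another _s_at probe set gave -0.44, -0.56 and -0.92 in the same treatments. The brightest probe set without that suffix, dimmer than both, gave 0.03, 0.02 and -0.02, none of them called, and was higher at BKM120 IC50 (0.45), where the _s_at probe sets were not called.

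ITGB1, the shared partner of most alpha chains, was called only at BEZ235 IC50 (0.15, adjusted p = 0.0135), and not without replicate 3 (0.11, adjusted p = 0.0743). Its sign there turned with quantile normalization (-0.051) and with other probe sets. In the other treatments its changes ran between -0.04 and 0.05, and at BEZ235 max the 95% interval was -0.11 to 0.10. ITGB5, another partner of ITGAV, depended on the probe set. On the brightest one, with all arrays, it was called only at BEZ235 IC50 (0.31), where replicate 3 read 2787 and the other arrays 1162 to 1444, and the change was 0.04 without that array. The fit without it called ITGB5 at BKM120 IC30 (0.17, adjusted p = 0.015), IC50 (0.18, adjusted p = 0.0122) and IC90 (max) (0.18, adjusted p = 0.00576). The suffix of that probe set, _x_at, marks probes that may match other genes. A dimmer probe set without it was higher in all 9 treatments with all arrays, by 0.38 at GDC0941 IC50 to 1.01 at GDC0941 max, with 0.72 at BKM120 IC90 (max) and 0.76 at BEZ235 max.

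Among the laminin chains, LAMB3 fell under BKM120 and GDC0941, LAMB1 and LAMB2 rose under BEZ235, and LAMC1 fell at the higher levels of BKM120 and BEZ235. LAMB3 encodes the beta chain of the epidermal laminin. Its signal was 26, 33.6, 25.8 and 33.6 at BKM120 IC30 and 30.3, 28.2, 42.4 and 36.8 at GDC0941 max, against 69.3, 77.3, 73.6 and 68.7 in DMSO. Both groups lay wholly below DMSO, with changes of -0.95 (SE 0.15, adjusted p = 1.19e-05) and -0.81 (SE 0.15, adjusted p = 3.77e-05), or 1.93-fold and 1.76-fold lower. The other levels of BKM120 gave -0.90 at IC50 and -0.58 at IC90 (max), and those of GDC0941 -0.75 at IC50 and -0.69 at IC90, all called. Under BEZ235 it was -0.33, -0.28 and 0.16 from IC50 to max, none of them called. Without replicate 3 the value at BEZ235 IC50 was -0.45 (adjusted p = 0.0159). Of the pair of genes whose promoter stretches are printed above, ITGA5 was thus called under BEZ235 in the fit of all arrays and LAMB3 was not.

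LAMB2, a beta chain of the laminins of the synapse and the kidney filter, rose. Its signal was 361, 256, 295 and 275 at BEZ235 max and 196, 176, 211 and 206 at GDC0941 max, against 147, 148, 147 and 134 in DMSO. The changes were 0.96 (SE 0.13, adjusted p = 4.36e-08) and 0.41 (SE 0.13, adjusted p = 0.00781), and the first is 1.94-fold higher. At BEZ235 IC50 it was 0.49, and 0.25 (adjusted p = 0.02) without replicate 3. The call at BKM120 IC90 (max) (0.33, adjusted p = 0.0421) was lost with a pseudocount of 64 and when dim genes were kept in. LAMB1, a beta chain found in many basement membranes, rose at all 3 levels of BEZ235, by 0.44, 0.42 and 0.43, and 0.25 at IC50 without replicate 3. Its signal at BEZ235 max was 1825, 1622, 1669 and 1682, against 1279.8, 1207, 1253 and 1305 in DMSO. It was 0.04 at BKM120 IC90 (max) and 0.04 at GDC0941 max, neither called. Without that array LAMB1 was called lower at BKM120 IC50 (-0.13, adjusted p = 0.0428). LAMC1, the gamma chain of most laminins, fell at BKM120 IC90 (max) (-0.23), BEZ235 IC90 (-0.37) and BEZ235 max (-0.47), with signals of 911, 805, 916 and 892 at BEZ235 max, against 1261, 1179.8, 1240.4 and 1216 in DMSO.

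The laminin alpha chains were called mainly at BEZ235 IC50, where 1 array weighs most. LAMA1, the alpha chain of the laminin of early embryos, gave 605, 513, 1159 and 510 at BEZ235 IC50, against 406, 372, 412 and 406 in DMSO. Replicate 3 was the highest, and the other 3 arrays were also above DMSO. The change was 0.69 (SE 0.15, adjusted p = 0.000305) with replicate 3 and 0.42 (adjusted p = 0.00204) without it. At GDC0941 max LAMA1 was 550.5, 505, 564 and 573, a change of 0.44 (SE 0.15, adjusted p = 0.0164), and without replicate 3 of BEZ235 IC50 it was also called at GDC0941 IC50 (0.33, adjusted p = 0.0171). LAMA4, an alpha chain of vessel laminins, read 839.9, 834, 1886 and 829.8 at BEZ235 IC50, against 716, 698, 605 and 698 in DMSO. Its change was 0.58 with replicate 3 and 0.29 (adjusted p = 0.00265) without it, and it ran between -0.17 and 0.04 in the other 8 treatments, none of them called with all arrays. Without replicate 3 it was called lower at GDC0941 max (-0.17, adjusted p = 0.0484). On its probe set without an _x or _s suffix, LAMA4 stood at -0.064 at BEZ235 IC50. LAMA5, an alpha chain of most adult basement membranes, was 0.52 with it and 0.16 (adjusted p = 0.292) without it, and that array read 249.6 where the others read 75.1 to 94. The median change of the 7 tested laminins at BEZ235 IC50 was 0.49 with replicate 3 and 0.25 without it.

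**Figure D3:**
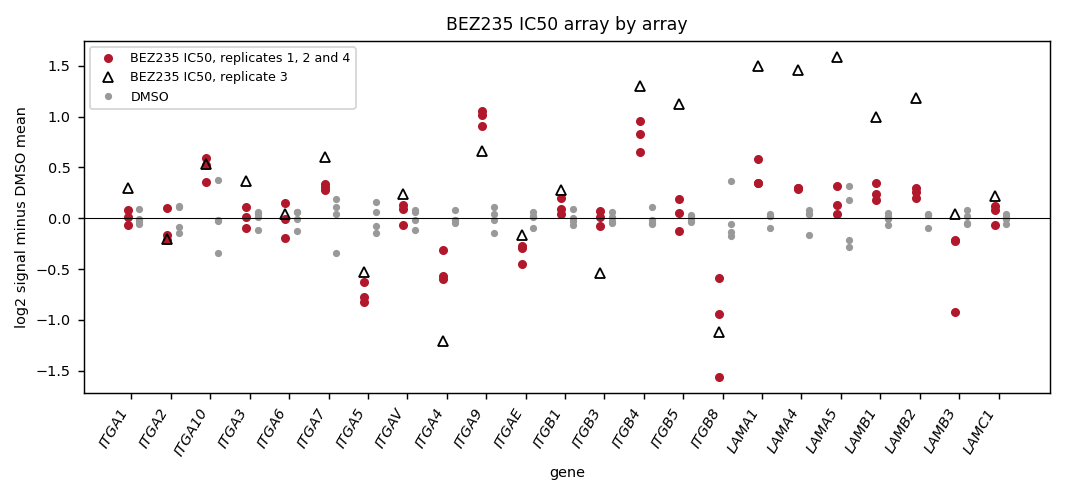
Log2 signal minus the DMSO mean for each tested member on the 4 arrays of BEZ235 IC50, with replicate 3 as a triangle, and on the 4 DMSO arrays in grey. Replicate 3 lies far above the other BEZ235 IC50 arrays for ITGB5, LAMA1, LAMA4, LAMA5, LAMB1 and LAMB2 and below them for ITGA4, ITGA9 and ITGB3.

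The 13 dim members had group means of signal of at most 19.1 and were not tested. They were ITGA2B of the platelet receptor, the leukocyte chains ITGAL, ITGAM, ITGAX, ITGB2 and ITGB7, ITGA8 and ITGA11, the laminins LAMA2, LAMB4 and LAMC3, the noncoding ITGB1-DT and the pseudogene LAMB2P1. ITGB6, whose probe set carries several symbols, was left out by the rule.

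The compounds were compared directly at levels of the same name, in 7 comparisons. BKM120 at IC50 against GDC0941 at IC50 gave 0 called members of 23 by limma, where 0.598% of all genes were called. At an unadjusted p under 0.05 there were 5 members, with 15.3% of all genes. Among these, ITGB8 was higher under BKM120 by 0.44 (95% interval 0.13 to 0.75) and ITGA6 by 0.27 (0.11 to 0.43). In the fit without BEZ235 IC50 replicate 3, which changes the shared estimate of spread, ITGA6 (adjusted p = 0.0392) and ITGAV (adjusted p = 0.0435) were called.

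BEZ235 differed from both other compounds at IC50. BEZ235 against GDC0941 called 15 members (11 higher and 4 lower, where 34.1% of all genes were called, 18.6% higher and 15.5% lower), and BKM120 against BEZ235 called 14 (4 higher and 10 lower, where 32.1% of all genes were called, 15.2% higher and 16.9% lower). ITGB4 was higher by 0.83 under BEZ235 than under GDC0941 (0.71 without replicate 3), and ITGB8 was higher by 1.01 under BKM120 than under BEZ235 (0.99 without it). Without replicate 3 these counts were 14 and 13 (33.6% and 30.7% of all genes), and with only the compared groups in the fit they were 4 and 2. The share of all genes called in those smaller fits was not counted.

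At IC90, BEZ235 against GDC0941 called 13 members (7 higher and 6 lower, where 42.9% of all genes were called, 23% higher and 20% lower), BKM120 at IC90 (max) against BEZ235 IC90 called 10 (4 higher and 6 lower, where 45.1% of all genes were called, 18.5% higher and 26.6% lower), and BKM120 at IC90 (max) against GDC0941 called 6 (3 higher and 3 lower, where 29.9% of all genes were called, 11.7% higher and 18.2% lower). In the last, ITGA3 was higher under BKM120 by 0.51 (SE 0.08, adjusted p = 8.35e-06) and ITGA9 lower by a log2 change of -0.46 (SE 0.08, adjusted p = 4.54e-05). That count fell to 2 without BKM120 IC90 (max) replicate 4, and to 3 without GDC0941 IC90 replicate 2 or replicate 4. The share of all genes called without those arrays was not counted.

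At max, BEZ235 against GDC0941 called 12 members (7 higher and 5 lower, where 36.5% of all genes were called, 18.7% higher and 17.8% lower). LAMB3 differed most, with 101, 86.7, 69 and 77.1 under BEZ235, against 30.3, 28.2, 42.4 and 36.8 under GDC0941, a difference of 0.98 (SE 0.15, adjusted p = 2.8e-06). ITGA2 differed by 0.70 (SE 0.10, adjusted p = 5.25e-07), ITGA3 by 0.55 (SE 0.08, adjusted p = 1.85e-06) and LAMB2 by 0.54 (SE 0.13, adjusted p = 0.000724). ITGAV (-0.41), LAMC1 (-0.36) and ITGB8 (-0.51) were lower under BEZ235. ITGA4 and ITGB4 were not called in this comparison, at -0.11 (95% interval -0.32 to 0.10) and 0.10 (-0.13 to 0.33).

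The highest level of each compound was also set against its lowest. GDC0941 at max against IC50 called 9 members (5 higher and 4 lower, where 29.6% of all genes were called, 16.3% higher and 13.3% lower), and BKM120 at IC90 (max) against IC30 called 7 (4 higher and 3 lower, where 34% of all genes were called, 14.3% higher and 19.7% lower). BEZ235 at max against IC50 called 17 (6 higher and 11 lower, where 39.1% of all genes were called, 20.2% higher and 18.9% lower), and 16 (8 higher and 8 lower, 39.4%) without replicate 3 of IC50. ITGA4 fell in each, with log2 changes of -0.70 for BKM120, -0.82 for BEZ235 (-0.997 without replicate 3) and -1.30 for GDC0941. ITGA2 and ITGA3 were higher at the highest level of every compound, by 0.39 and 0.59 for BKM120, 0.46 and 0.52 for BEZ235 (0.43 and 0.61 without replicate 3), and 0.36 and 0.44 for GDC0941. ITGA9 was lower at the highest level of BKM120 (-0.65) and BEZ235 (-0.60, or -0.69 without replicate 3), and stood at -0.10 for GDC0941 (95% interval -0.27 to 0.07). ITGB4 rose by 0.98 between IC50 and max of GDC0941. For BEZ235, LAMB1 stood at -0.02 with all arrays and at 0.17 (adjusted p = 0.0109) without replicate 3. The change between IC50 and IC90 was also compared between compounds, as an interaction. It differed for 3 members between BKM120 and BEZ235 (24.5% of all genes), 4 between BKM120 and GDC0941 (19.2%) and 2 between BEZ235 and GDC0941 (9.81%), among them ITGA3, ITGAV and LAMC1. Without replicate 3 these counts were 3, 4 and 4 (29.1%, 27.7% and 13.8% of all genes), with ITGA7 and LAMB2 added between BEZ235 and GDC0941.

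Genes that work with integrins inside and outside the cell were taken from a pair of lists. Of 37 adhesion adaptors, proteins that join integrins to actin and to kinases, 31 were tested. From low to high level, 11, 8 and 9 were called for BKM120, 10, 11 and 8 for BEZ235 and 7, 10 and 11 for GDC0941. Of all genes, 21.3%, 19.8% and 34.2% were called at the levels of BKM120, 45.5%, 55% and 57.7% at those of BEZ235 and 16.1%, 25.3% and 43.7% at those of GDC0941. Without replicate 3 of BEZ235 IC50 the adaptor counts were 11, 9 and 11 for BKM120, 11, 15 and 14 for BEZ235 and 12, 13 and 15 for GDC0941. Of the 11 called at BKM120 IC30, 2 were higher and 9 lower (13.2% and 8.15% of all genes), and of the 9 at BKM120 IC90 (max), 6 were higher and 3 lower (17.2% and 17%). ZYX, a focal adhesion protein, was lower at BKM120 IC30 (-0.84, SE 0.14, adjusted p = 2.03e-05) and higher at BKM120 IC90 (max) (0.42, SE 0.14, adjusted p = 0.0161), and it was lower at all 3 levels of GDC0941 (-0.68, -0.78 and -0.51). TGFB1I1, a paxillin relative, rose by 1.05 at BEZ235 max and by 0.69 at BKM120 IC90 (max). GIT1, a scaffold that binds paxillin, rose by 0.93, and SHARPIN, an inhibitor of integrin activation, by 0.64 at BEZ235 max. PARVB, which links integrin-linked kinase to actin, fell at the 3 levels of BEZ235 (-0.54, -0.41 and -0.57, with -0.27 for the first without replicate 3). LPXN, another paxillin relative, was lower in all 9 treatments (-0.85 at GDC0941 max) on the probe set used, whereas the probe set without an _x or _s suffix gave 0.48 at GDC0941 max.

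Of 30 ligands and basement membrane partners, 24 were tested, and 10, 9 and 9 were called for BKM120, 13, 11 and 12 for BEZ235 and 8, 9 and 9 for GDC0941. The shares of all genes are those given for the adaptors. Without replicate 3 of BEZ235 IC50 the counts were 11, 12 and 12 for BKM120, 9, 12 and 15 for BEZ235 and 11, 10 and 11 for GDC0941. At BKM120 IC30, 3 were higher and 7 lower (13.2% and 8.15% of all genes), and at BKM120 IC90 (max), 8 were higher and 1 lower (17.2% and 17%). CCN1 and CCN2, matrix proteins that bind integrins, fell at BKM120 IC30 (-1.72 and -1.67) and GDC0941 IC50 (-1.10 and -1.17), and CCN1 rose at BEZ235 max (0.84, SE 0.12, adjusted p = 2.27e-07). FN1, fibronectin itself, rose at all 3 levels of BEZ235 (0.62, 0.69 and 0.78, with 0.49 for the first without replicate 3). It also rose at BKM120 IC90 (max) (0.37) and GDC0941 max (0.31), and its receptor chain ITGA5 fell in each of these. In the remaining treatments, where ITGA5 fell too, FN1 did not rise. It stood at -0.15 (BKM120 IC30), -0.06 (BKM120 IC50), -0.24 (GDC0941 IC50) and -0.10 (GDC0941 IC90). Without replicate 3 of BEZ235 IC50, the value at GDC0941 IC50 was called (limma, adjusted p = 0.00811). MFGE8, a ligand of the ITGAV receptors, rose in all 9 treatments, by 0.36 at GDC0941 IC50 to 1.22 at GDC0941 max, but the probe set without an _x or _s suffix stood at -0.0055 at BKM120 IC30 and -0.019 at GDC0941 IC90. THBS1, thrombospondin, fell at BKM120 IC30 (-1.40) and was 0.03 at BEZ235 max, where the probe set without an _x or _s suffix gave -1.90. PLEC, which ties ITGB4 to keratin filaments, fell at BKM120 IC50 (-0.72, SE 0.17, adjusted p = 0.00174) and was 0.37 at BEZ235 max (adjusted p = 0.0552).

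**Figure D4:**
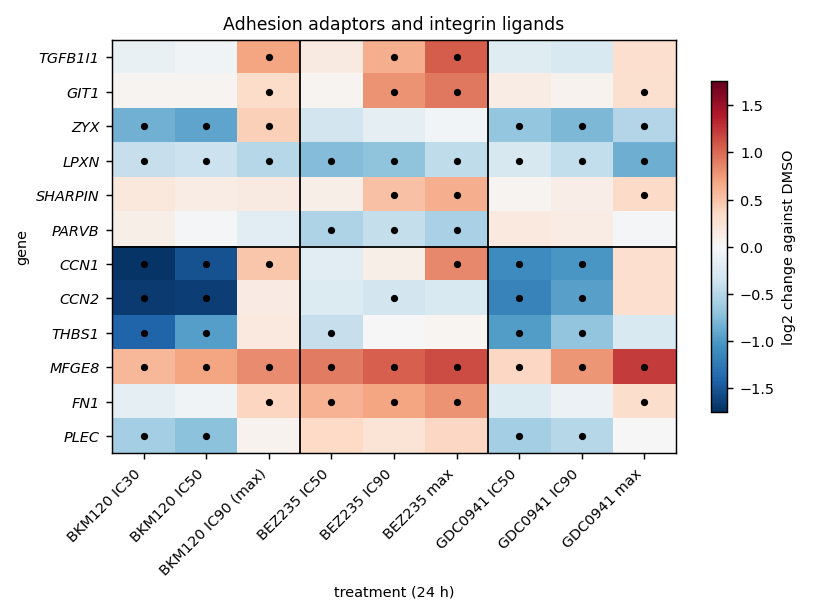
Log2 change against DMSO of 6 adhesion adaptors (above) and 6 ligands or matrix partners (below) in the 9 treatments, with a dot where the adjusted p was under 0.05. CCN1 is lowest at BKM120 IC30 (-1.72) and MFGE8 highest at GDC0941 max (1.22).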

How the data were processed

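Total RNA from A2058 cells was amplified, labelled with biotin and measured on 40 one-colour arrays of 54675 probe sets, 4 for each of 10 groups. Per the submitters' processing notes, the deposited intensity values were made with MAS5, in a version that those notes do not name. The values of each array, without the top and bottom 2% of probe sets, average 150, so the authors scaled each array by a single factor. No counts underlie them, so the number of arrays limits the precision.

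Probe sets were named from the platform annotation, where 41097 carry a single symbol, 1801 carry several and 11777 carry none. Each gene was represented by the probe set with the highest mean of log2(value + 16) over 40 arrays. Genes above the 40th percentile of that mean were tested. A linear model with the 10 groups was fitted in limma 3.58.1 (R 4.3.3) with 30 residual degrees of freedom, and Benjamini-Hochberg adjustment ran over all 11865 genes within each of 22 comparisons. Calls needed an adjusted p under 0.05. The model was tested on simulated data.

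The members, the lists and the rules were chosen with earlier results of these data known. Values on every array are given for up to 12 members, ranked by their largest absolute change in a treatment where they were called and did not overlap DMSO. Values of ITGA1, ITGA3, ITGAV, LAMA4, LAMB1 and LAMC1, which are not among these, were added after they were seen. Up to 6 genes were named from each partner list by the same measure. Protein motifs were not searched. Replicate numbers were checked as pairs: deviations of same-numbered arrays correlated at -0.32 to 0.31 (median -0.02), and in 0 of 45 pairs of groups were all correlations over 0.1, so the arrays were treated as unpaired. Alternatives changed the pseudocount, the filter, the normalization, the choice of probe set, the block, the arrays and the groups fitted.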

Additional observations from a re-analysis of the deposited data

Results flagged for a closer look

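Single arrays stood apart from the other 3 of their group in 10 of the 120 group values of the 12 members described by array, where about 6 are to be counted on by chance (1 in 20). LAMB2 read 347.8 on BEZ235 IC50 replicate 3, where the others read 168.2 to 180.2, and this is the array with the high 3′ to 5′ ratios. Of the other treated groups, ITGA4 read 318.9 on BKM120 IC50 replicate 4 (others 353.8 to 360.2), ITGB3 read 237.4 on GDC0941 max replicate 3 (308.8 to 318.8) and ITGA10 read 48.4 on BEZ235 max replicate 1 (52.2 to 52.9). ITGA2 read 212.9 on BEZ235 IC90 replicate 2 (248.8 to 253.6) and 176.2 on GDC0941 IC50 replicate 1 (127.1 to 129.6). LAMA1 read 356.3 on BKM120 IC90 (max) replicate 4 (427 to 431.6), and ITGA5 read 454.4 on BKM120 IC30 replicate 2 (400 to 401.5). Among DMSO arrays, LAMB2 read 133.7 on replicate 4 (147 to 148.4) and LAMA1 read 372.1 on replicate 2 (406 to 412.1).

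The change between IC50 and IC90 differed between compounds for some members, by the interaction term in limma with Benjamini-Hochberg adjustment. The share of members called was 13% for BKM120 against BEZ235, 17.4% for BKM120 against GDC0941 and 8.7% for BEZ235 against GDC0941. Of all genes, 24.5%, 19.2% and 9.81% were called, so the members did not exceed these shares. The 4 members called between BKM120 and GDC0941 fell to 2 without certain single arrays. Between BKM120 and BEZ235, ITGA3 changed by 0.54 and 0.08, a difference of 0.45 (adjusted p = 0.00415). ITGA7 changed by -0.09 under BKM120 and 0.48 under BEZ235, a difference of -0.58 (adjusted p = 0.0422), and LAMC1 by -0.16 and -0.46, a difference of 0.30 (adjusted p = 0.0111). Between BKM120 and GDC0941, ITGA3 changed by 0.54 and 0.19, a difference of 0.35 (adjusted p = 0.0326), and ITGA5 by 0.12 and -0.23, a difference of 0.35 (adjusted p = 0.0199). ITGA9 changed by -0.45 under BKM120 and -0.11 under GDC0941, a difference of -0.33 (adjusted p = 0.0441), and ITGAV by -0.25 and 0.11, a difference of -0.37 (adjusted p = 0.00178). Between BEZ235 and GDC0941, ITGAV changed by -0.38 and 0.11, a difference of -0.50 (adjusted p = 0.000172), and LAMC1 by -0.46 and 0.03, a difference of -0.48 (adjusted p = 0.000317). Without replicate 3 of BEZ235 IC50, the differences that rest on it were 0.36 for ITGA3, -0.65 for ITGA7 and 0.25 for LAMC1 between BKM120 and BEZ235. Between BEZ235 and GDC0941 they were -0.45 for ITGAV and -0.44 for LAMC1, and all 5 were called.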

How the results depend on the processing

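Of the 98 calls of members against DMSO, 98 held with a pseudocount of 1, 95 with a pseudocount of 64, 92 with no filter on dim genes, 94 with quantile normalization and 91 with the mean over probe sets. With _x_at and _s_at probe sets used last, 85 held, and the 6 calls of ITGB4 were lost because it was no longer tested. Without BEZ235 IC50 replicate 3, 94 held, and with only the compared groups fitted, 87 held. Above the 60th percentile 73 held, since 25 were no longer tested. With the replicate number as a block, 98 of 98 held, and of the values of other genes and comparisons ZYX at BEZ235 IC50 (-0.33) gained a call. The pairing changed no other call. The counts that moved by over 1.5 times did so in these settings, and the cause was not tested. Shares of all genes called were counted only for the fit without BEZ235 IC50 replicate 3, so the other counts cannot be set against them. With the mean over probe sets, 11 members were called at BKM120 IC30 (6 higher and 5 lower), 7 at BKM120 IC50 and 6 for the step between IC50 and IC90 of BKM120 against BEZ235. Without BEZ235 IC50 replicate 3, 8 were called at BKM120 IC50 (29% of all genes) and 2 for BKM120 IC50 against GDC0941 IC50 (4.16%). That fit called 4 for the step of BEZ235 against GDC0941 (13.8%). With only the compared groups fitted, 7 were called at BEZ235 IC50, 2 for BKM120 against BEZ235 at IC50, 3 for BKM120 against GDC0941 at IC50, 4 for BEZ235 against GDC0941 at IC50, 11 for BKM120 IC90 (max) against IC30 and 7 for BEZ235 max against IC50.

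In each comparison, leaving out each replicate of the compared groups in turn gave 4 to 7 members at BKM120 IC30 (4 without DMSO replicate 2 or replicate 4), 4 to 5 at BKM120 IC50 and 9 to 12 at BKM120 IC90 (max). It gave 12 to 16 at BEZ235 IC50, 13 to 14 at BEZ235 IC90, 16 to 17 at BEZ235 max, 5 to 6 at GDC0941 IC50, 9 to 10 at GDC0941 IC90 and 12 to 13 at GDC0941 max. Between compounds at IC50 it gave 13 to 15 for BKM120 against BEZ235, 0 to 0 for BKM120 against GDC0941 and 13 to 17 for BEZ235 against GDC0941. At IC90 these were 9 to 11, 2 to 5 (2 without BKM120 IC90 (max) replicate 4) and 12 to 13, and at max 11 to 13 for BEZ235 against GDC0941. Between levels it gave 5 to 7 for BKM120, 13 to 17 for BEZ235 and 9 to 9 for GDC0941. For the steps it gave 2 to 5 for BKM120 against BEZ235 (5 without BEZ235 IC50 replicate 4), 2 to 4 for BKM120 against GDC0941 and 2 to 4 for BEZ235 against GDC0941. The 2 for BKM120 against GDC0941 came without BKM120 IC50 replicate 2, BKM120 IC90 (max) replicate 4, GDC0941 IC50 replicate 2 or GDC0941 IC90 replicate 3, and the 4 for BEZ235 against GDC0941 without BEZ235 IC50 replicate 3 or replicate 4. Apart from the fit without BEZ235 IC50 replicate 3, the shares of all genes called were not counted.

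With _x_at and _s_at probe sets used last, signs turned for these genes. LPXN was 0.16 (BKM120 IC30), 0.25 (BKM120 IC50), 0.44 (BKM120 IC90 (max)), 0.14 (BEZ235 IC50), 0.62 (BEZ235 IC90), 0.38 (BEZ235 max), 0.080 (GDC0941 IC50), 0.36 (GDC0941 IC90) and 0.48 (GDC0941 max). MFGE8 was -0.0055 (BKM120 IC30) and -0.019 (GDC0941 IC90). ITGB3 was 0.45 (BKM120 IC50), 0.027 (BKM120 IC90 (max)), 0.025 (BEZ235 max) and 0.10 (GDC0941 IC90). LAMA4 was 0.52 (BKM120 IC90 (max)), -0.064 (BEZ235 IC50), 0.028 (BKM120 IC50 against BEZ235 IC50), -0.0086 (BEZ235 IC50 against GDC0941 IC50), 0.55 (BKM120 IC90 (max) against BEZ235 IC90), 0.48 (BKM120 IC90 (max) against BKM120 IC30) and 0.64 (the step of BKM120 against GDC0941). THBS1 was -0.86 (BKM120 IC90 (max)), -2.08 (BEZ235 IC90) and -1.90 (BEZ235 max). ITGB1 was -0.31 (BEZ235 IC50), -0.25 (BEZ235 IC50 against GDC0941 IC50) and 0.22 (BEZ235 max against BEZ235 IC50). ITGB5 was 0.53 (BEZ235 IC90), 0.76 (BEZ235 max), 0.66 (GDC0941 IC90), 0.21 (BEZ235 max against BEZ235 IC50) and 0.63 (GDC0941 max against GDC0941 IC50). With the mean over probe sets, signs turned as follows. ITGB1 was -0.12 (BEZ235 IC50), -0.051 (BEZ235 IC50 against GDC0941 IC50) and 0.043 (BEZ235 max against BEZ235 IC50). THBS1 was -0.34 (BEZ235 IC90) and -0.15 (BEZ235 max). LAMA4 was 0.15 (BKM120 IC90 (max) against BEZ235 IC90). ITGB8 was 0.31 (the step of BKM120 against BEZ235). With quantile normalization, ITGB1 was -0.051 (BEZ235 IC50). Leaving out each replicate in turn, LAMB1 at BEZ235 max against IC50 ranged over -0.10 to 0.17, with 0.17 without BEZ235 IC50 replicate 3. Signal over background limits the members nearest the filter, ITGB4, ITGA10 and LAMB3, whose folds shrink with a larger pseudocount.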
